A study of Mus musculus with 31 samples.

Results

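The 10 genes described here encode proteins that neurons use to build their cytoskeleton or to bind their RNA. They were taken as a named list and found by Ensembl identifier and symbol. All 10 were present among the 34865 genes of a bulk RNA-seq table and among the 55487 genes of a Smart-seq2 table (Smart-seq2 reads whole transcripts from as little as a single cell). Both tables come from mouse embryos, in a study of Axin2 (a feedback inhibitor of Wnt signalling) in stem cell competition in the developing brain. The bulk libraries, 3 from dorsal and 3 from ventral diencephalon, were made from wild-type mice at E10.5 (E, embryonic day). The Smart-seq2 libraries came from the medial cortex at E11.5, dissociated after Emx1-CreERT2::MADM-11::Axin2LacZ/+ animals had been bred. Of these, 13 libraries were labelled Emx1-cre(+/-)::MDMD::Axin2(-/-), called null here, and 12 were labelled Emx1-cre(+/-)::MDMD::Axin2(+/+), called wild type here. Both genotypes therefore carried the same Cre driver and the same MADM (mosaic analysis with double markers) chromosome, and Emx1 drives recombination in the dorsal telencephalic lineage. The labels call each Smart-seq2 sample a cell and name no embryo. All samples were labelled as neural progenitor cells.

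When a neural progenitor leaves the cell cycle, the new neuron assembles a microtubule and intermediate filament skeleton that carries its migration and its axon. Neuronal tubulin and microtubule-associated proteins appear early, growth cone proteins accompany axon outgrowth, and neurofilament subunits accumulate as axons mature. Neuronal ELAV proteins bind AU-rich stretches of messenger RNA and act on the stability, splicing and translation of neuronal transcripts. At these stages the diencephalon and cortex hold both dividing progenitors and their first neurons.

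Tubb3 (ENSMUSG00000062380) lies on chromosome 8 from 123411424 to 123422015, plus strand, and Dcx (ENSMUSG00000031285) on chromosome X from 143855842 to 143933311, minus strand, in GENCODE M21 on GRCm38. In the same annotation Map2 (ENSMUSG00000015222) spans 66175273 to 66442583 of chromosome 1, Gap43 (ENSMUSG00000047261) spans 42248442 to 42340651 of chromosome 16 and Stmn2 (ENSMUSG00000027500) spans 8509360 to 8561606 of chromosome 3. Elavl3 (ENSMUSG00000003410) spans 22015005 to 22052023 of chromosome 9, Elavl4 (ENSMUSG00000028546) spans 110203722 to 110351909 of chromosome 4 and Ina (ENSMUSG00000034336) spans 47014698 to 47025327 of chromosome 19. Nefl (ENSMUSG00000022055, 68083863 to 68089095, plus strand) and Nefm (ENSMUSG00000022054, 68082590 to 68124846, minus strand) are neighbours on chromosome 14, and 1108 exonic bases of the Nefm model lie opposite exons of Nefl. The Ina exons share 456 bases with Nt5c2 on the opposite strand, Map2 shares 124 bases with Gm10558 on the opposite strand and Elavl3 shares 256 bases with Gm49318 on the same strand. Whether the counting used strand is not given in the sources used here, so reads in these stretches could not be assigned with certainty.

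RefSeq promoter windows on GRCm38.p6, from 250 bases before to 50 bases after a transcription start, matched 6 of the 10 genes (Tubb3, Dcx, Map2, Elavl3, Elavl4 and Ina). The first listed window is shown for 3 of them: the gene with the highest level per length, the gene that was higher in dorsal diencephalon, and the intermediate filament gene that stood lower in all dorsal libraries. Capitals mark matches on either strand to CAGCTG or CATCTG (E-boxes), GGGCGG (GC box), CCAAT or TATAAA, none of which overlap each other.
Tubb3 (chr8:123411303-123411602, plus strand): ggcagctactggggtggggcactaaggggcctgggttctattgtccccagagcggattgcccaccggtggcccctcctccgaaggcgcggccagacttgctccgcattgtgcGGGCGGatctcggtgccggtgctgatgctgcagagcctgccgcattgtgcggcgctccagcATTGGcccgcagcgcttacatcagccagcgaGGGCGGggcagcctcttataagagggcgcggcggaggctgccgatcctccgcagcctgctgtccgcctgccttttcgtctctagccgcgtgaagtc
Dcx (chrX:143933170-143933469, minus strand): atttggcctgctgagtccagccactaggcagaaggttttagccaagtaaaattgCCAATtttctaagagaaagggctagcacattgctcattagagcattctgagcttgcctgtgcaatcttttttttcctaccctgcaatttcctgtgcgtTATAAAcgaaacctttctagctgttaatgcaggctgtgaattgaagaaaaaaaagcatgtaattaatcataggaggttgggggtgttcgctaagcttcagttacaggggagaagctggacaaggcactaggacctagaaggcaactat
Ina (chr19:47014431-47014730, plus strand): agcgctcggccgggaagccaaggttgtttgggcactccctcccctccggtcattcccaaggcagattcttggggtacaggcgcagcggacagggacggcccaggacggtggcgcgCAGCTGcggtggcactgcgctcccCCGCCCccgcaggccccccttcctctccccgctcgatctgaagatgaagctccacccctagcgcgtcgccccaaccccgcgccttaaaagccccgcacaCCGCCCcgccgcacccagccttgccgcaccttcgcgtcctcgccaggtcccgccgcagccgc
Base composition differed widely among them. G and C made up 67.3% of the Tubb3 window, 43.0% of the Dcx window and 71.7% of the Ina window, against a median of 52.7% over all 32851 promoter windows. GGGCGG occurred in windows of 4 of the 6 genes and in 35.7% of all windows, CCAAT in windows of 4 and in 37.4%, and CAGCTG in windows of 3 and in 16.3%. TATAAA occurred in windows of 2 genes and in 13.6% of all windows, and CATCTG in windows of 1 gene and in 17.2%. The 6 genes have 10 windows, and a gene was counted if any of its windows matched. The percentages are over single windows, so the 2 measures are unlike and were not compared. These matches describe the letters only.

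The dorsal libraries held 20622702, 20549847 and 17604166 estimated counts and the ventral libraries 20838002, 19095390 and 17769770. Library 3 stood apart in each region: its correlation across genes with the other 2 was 0.962 and 0.959 in dorsal and 0.925 and 0.914 in ventral, where the other pair reached 0.995 and 0.987. Lars2, a mitochondrial leucyl-tRNA synthetase, took 0.277%, 0.109% and 2.44% of the counts in dorsal libraries 1, 2 and 3, against 0.0820%, 0.0295% and 0.144% in ventral libraries 1, 2 and 3. Mitochondrial genes took 1.58%, 1.56% and 1.14% of the dorsal libraries and 2.76%, 3.74% and 1.73% of the ventral libraries, with no overlap. A list of 10 intestinal and pancreatic genes took between 0.000902% and 0.00101% of the dorsal libraries and 0.419%, 0.757% and 0.205% of ventral libraries 1, 2 and 3, and all 10 were lower in dorsal. Together the 10 pan-neuronal genes took between 0.542% and 0.623% of the counts of dorsal and between 0.610% and 0.655% of ventral libraries.

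The comparison of dorsal with ventral diencephalon asks how the 2 regions differ in these genes. Of the 10 genes, Dcx was higher in dorsal and Gap43 and Stmn2 were lower in dorsal at an adjusted p under 0.05 (edgeR quasi-likelihood test on estimated counts, Benjamini-Hochberg over all 14701 genes tested). Of all genes tested, 7.14% were called higher in dorsal and 9.54% higher in ventral, 16.7% in all. With 10 members, 3 calls are not read as a share that differs from this background. The median log2 fold change of the 10 genes was -0.10, against 0.01 over all genes tested. The 3 libraries of each region did not overlap for 6 of the 10 genes, 2 with all dorsal above all ventral and 4 with all ventral above all dorsal, where 39.0% of all genes tested did not overlap (19.0% with dorsal above and 20.0% with ventral above). All 10 genes passed the minimum of 1 CPM (counts per 1000000) in the mean, taken on library totals before TMM scaling. The CPM levels given below are after TMM scaling. In bulk tissue, fewer neurons and less RNA per neuron cannot be told apart.

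**Figure D1:**
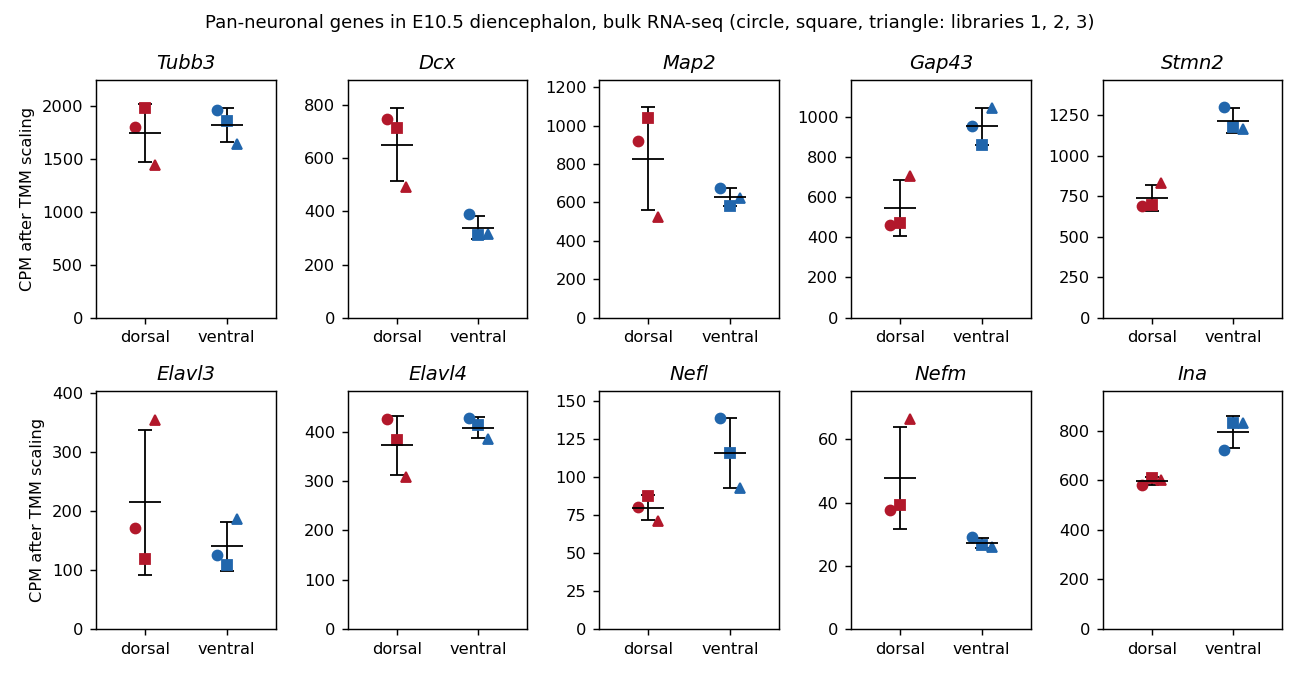
Expression of each gene in counts per 1000000 (CPM) after TMM scaling (vertical axes, each starting at 0) in dorsal (red) and ventral (blue) diencephalon. Points are libraries, black marks are the mean and SD of 3 libraries; Dcx and Nefm lie higher in every dorsal library, and Gap43, Stmn2, Nefl and Ina lie lower in every dorsal library.

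Among the microtubule genes, Dcx encodes doublecortin, a microtubule-binding protein of migrating neurons. It was at 748, 715 and 493 CPM in dorsal libraries 1, 2 and 3, against 389, 313 and 316 CPM in ventral libraries 1, 2 and 3. Every dorsal library lay above every ventral library, and dorsal library 3 was the lowest of its region. Dcx averaged 652 ± 139 CPM in dorsal against 339 ± 43.0 CPM in ventral (SD, n = 3 each), a 1.92-fold difference with a log2 fold change of 0.94 (SE 0.20, adjusted p = 0.0148, edgeR). The call was lost without dorsal library 1 (adjusted p = 0.0681, edgeR), dorsal library 2 (adjusted p = 0.0603) or ventral library 2 (adjusted p = 0.0670), and over all 11 alternatives the adjusted p ran from 2.46e-05 to 0.0681 with the log2 fold change between 0.82 and 1.12.

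Tubb3 encodes the neuronal class III beta-tubulin. Its levels were 1808, 1984 and 1447 CPM in dorsal against 1968, 1861 and 1648 CPM in ventral libraries, and the regions overlapped. The log2 fold change was -0.06, with a 95% interval from -0.42 to 0.29 (adjusted p = 0.816, edgeR), and it was 0.06 without dorsal library 3. Map2 encodes a microtubule-associated protein later found in dendrites. It was at 919, 1042 and 526 CPM in dorsal and at 676, 583 and 626 CPM in ventral libraries. Dorsal libraries 1 and 2 lay above all ventral libraries and dorsal library 3 below all of them. The Map2 log2 fold change of 0.40 (95% interval -0.16 to 0.96) did not pass (adjusted p = 0.315, edgeR). Without dorsal library 3 it was 0.65 with an adjusted p of 0.0113 (edgeR), in a range from 0.000479 to 0.707 over all alternatives.

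Both growth cone genes were lower in dorsal. Gap43, a phosphoprotein of the growth cone membrane, was at 462, 473 and 707 CPM in dorsal libraries 1, 2 and 3, against 954, 861 and 1045 CPM in ventral libraries 1, 2 and 3. The regions did not overlap, and library 3 was the highest of each region. Gap43 averaged 547 ± 139 CPM in dorsal against 954 ± 91.9 CPM in ventral (SD, n = 3 each), 0.574 times the ventral mean, with a log2 fold change of -0.80 (SE 0.20, adjusted p = 0.0283, edgeR). This call held in only 1 of the 6 fits that left out a library, the one that left out dorsal library 3 (-1.02 on the log2 scale, adjusted p = 0.00368, edgeR). It was lost without dorsal libraries 1 or 2 (adjusted p = 0.119 and 0.110, edgeR) and without ventral libraries 1, 2 or 3 (adjusted p = 0.0913, 0.0579 and 0.0531, edgeR). Over all alternatives its adjusted p ran from 8.94e-06 to 0.119.

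Stmn2 encodes a neuronal stathmin that binds tubulin dimers and promotes microtubule turnover in growth cones. It was at 689, 696 and 829 CPM in dorsal libraries 1, 2 and 3 and at 1305, 1180 and 1165 CPM in ventral libraries 1, 2 and 3. No library of one region reached the range of the other. Stmn2 averaged 738 ± 79.0 CPM in dorsal against 1217 ± 77.2 CPM in ventral (SD, n = 3 each), 0.607 times the ventral mean, with a log2 fold change of -0.72 (SE 0.14, adjusted p = 0.00974, edgeR). The call was lost without dorsal library 1 (adjusted p = 0.0592, edgeR), dorsal library 2 (adjusted p = 0.0526) or ventral library 1 (adjusted p = 0.0548), in a range from 2.07e-05 to 0.0592. Ventral library 3, with the least intestinal and pancreatic RNA of its region, had its highest Gap43 and its lowest Stmn2, and ventral library 2, with the most, had its lowest Gap43. The part of that RNA in these differences was not tested.

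**Figure D2:**
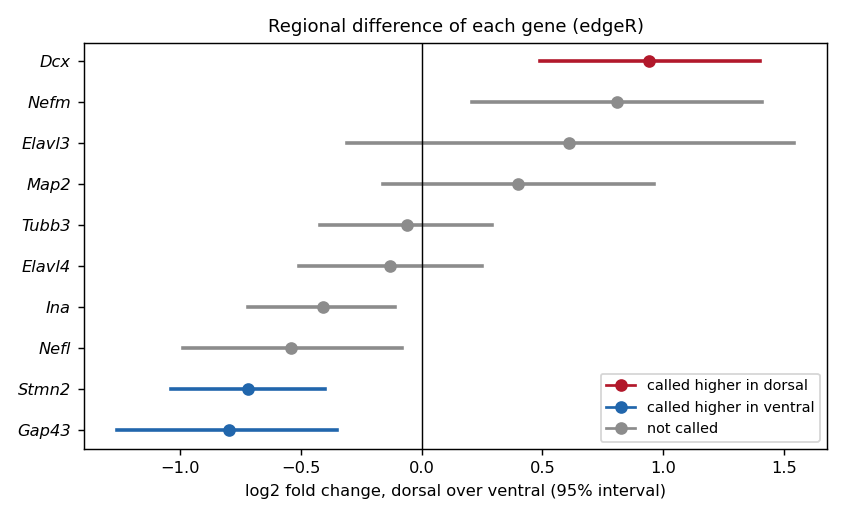
Log2 fold change of each gene, dorsal over ventral (horizontal axis), with its 95% interval from edgeR; colours give the call at an adjusted p under 0.05. Dcx at 0.94 and Gap43 at -0.80 are the ends of the range, and the intervals of Tubb3, Map2, Elavl3 and Elavl4 include 0.

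The 3 intermediate filament subunits lay in both directions. By edgeR 0 of the 3 passed, although each had an unadjusted p under 0.05, as did 30.6% of all genes tested. DESeq2, which called 24.2% of all genes, called Nefm higher in dorsal (adjusted p = 0.0349) and Nefl and Ina lower (adjusted p = 0.0484 and 0.00808). Nefl, the light neurofilament chain, was at 80.4, 87.5 and 71.0 CPM in dorsal against 139, 115 and 92.6 CPM in ventral libraries, with a log2 fold change of -0.54 (95% interval -0.99 to -0.08, adjusted p = 0.108, edgeR). Nefm, the medium chain, was at 37.7, 39.2 and 66.4 CPM in dorsal against 29.1, 26.6 and 26.0 CPM in ventral libraries, with a log2 fold change of 0.81 (95% interval 0.21 to 1.41, adjusted p = 0.0724, edgeR). For both chains the regions did not overlap, and they lay in opposite directions. Expressed per kilobase of exon, Nefm stood at 0.274, 0.262 and 0.546 of the Nefl level in dorsal libraries and at 0.123, 0.135 and 0.164 in ventral libraries. Every dorsal ratio was above every ventral ratio; the ratio was chosen after its values were seen and was not tested. Ina encodes alpha-internexin, a filament protein of early neurons, and was at 582, 610.4 and 601 CPM in dorsal against 723, 833 and 833 CPM in ventral libraries. Its dorsal libraries were within a narrow range below all ventral ones (log2 fold change -0.41, 95% interval -0.72 to -0.11, adjusted p = 0.0678, edgeR). Without dorsal library 3 the adjusted p of Ina was 0.0375 (edgeR, range 0.00443 to 0.226 over all alternatives), and that of Nefl was 0.0241 without ventral library 3 (range 0.000901 to 0.344).

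Neither ELAV gene passed by edgeR or DESeq2, and 0 of the 2 had an unadjusted p under 0.05. Elavl4 (HuD) was at 426, 383 and 307 CPM in dorsal against 427, 412 and 385 CPM in ventral libraries, with a log2 fold change of -0.13 (95% interval -0.51 to 0.25, adjusted p = 0.634, edgeR). Elavl3 (HuC) was at 172, 119 and 354 CPM in dorsal against 125, 109 and 187 CPM in ventral libraries. In both regions library 3 was the highest for Elavl3, and dorsal library 3 stood far above the other 5 libraries. Its log2 fold change was 0.61 with a wide interval from -0.31 to 1.54 (adjusted p = 0.344, edgeR), and between 0.06, without dorsal library 3, and 0.90 over the alternatives.

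Since library 3 stood apart in both regions, the fit was repeated on libraries 1 and 2 of each, a choice made after seeing the data. In that fit 7 of the 10 genes passed by edgeR, 3 higher and 4 lower in dorsal. Calls over all genes grew to 3843 higher and 4117 lower in dorsal, where the fit to all 6 libraries had tested 14701 genes. With so many calls over all genes, the 7 calls are not read as a share that differs from the background. The log2 fold changes were 1.05 for Dcx, -0.97 for Gap43 and -0.86 for Stmn2. Map2 (0.63, adjusted p = 0.000479, edgeR), Nefl (-0.61, adjusted p = 0.000901), Nefm (0.45, adjusted p = 0.0127) and Ina (-0.40, adjusted p = 0.00443) passed as well. Tubb3, Elavl3 and Elavl4 did not pass in either fit.

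Levels were compared between genes per kilobase of annotated exon, a length that includes every isoform of the gene model and so understates genes with long rare exons. On this scale Tubb3 was highest in both regions, at 935 ± 147 CPM per kb in dorsal and 978 ± 87.1 in ventral (SD, n = 3 each). Gap43 followed at 359 ± 91.2 CPM per kb in dorsal and 626 ± 60.3 in ventral, then Ina at 184 ± 4.51 in dorsal and 246 ± 19.6 in ventral and Stmn2 at 132 ± 14.1 in dorsal and 217 ± 13.8 in ventral. In ventral the ranges of Ina and Stmn2 overlapped, while in dorsal each of these 4 genes lay wholly above the next. Elavl4, Dcx, Map2, Elavl3 and Nefl followed in dorsal, with each overlapping its neighbour, from 69.1 CPM per kb for Elavl4 to 23.6 for Nefl. In ventral Elavl4 stood clear at 75.7 CPM per kb, and Map2, Nefl, Dcx and Elavl3 overlapped their neighbours between 38.2 and 20.4. Nefm was lowest in both regions at 8.26 ± 2.79 CPM per kb in dorsal and 4.71 ± 0.290 in ventral.

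Other genes of the neuronal cytoskeleton and of RNA binding were taken as 8 lists with 70 tested members. Of these, 9 were higher in dorsal, 7 were higher in ventral and 54 did not pass, with a median log2 fold change of 0.09. Over all genes tested, 7.14% were called higher in dorsal and 9.54% higher in ventral, 16.7% in all. The counts of these 8 lists, together or singly, are not read as shares that differ from this background. Of 11 other tubulins 2 were lower in dorsal: Tubb2a, a beta-tubulin with a near-identical paralog in Tubb2b between which reads could be split, was at 683 ± 24.9 CPM in dorsal against 1475 ± 75.5 CPM in ventral (log2 fold change -1.11, adjusted p = 0.000828, edgeR), and Tubb4a was at 334 ± 82.1 CPM in dorsal against 568 ± 44.7 CPM in ventral. Mapt, which encodes tau, was the only call among 10 other microtubule-associated genes, at 289 ± 11.6 CPM in dorsal against 444 ± 35.3 CPM in ventral (adjusted p = 0.0197, edgeR). Among 8 stathmins and collapsin response mediator genes, Dpysl4 (178 ± 10.4 CPM in dorsal, 508 ± 72.2 CPM in ventral) and Stmn4 (132 ± 33.5 CPM in dorsal, 223 ± 22.2 CPM in ventral) were lower in dorsal, and Dpysl2 was higher (460.4 ± 63.4 CPM in dorsal, 277 ± 46.9 CPM in ventral). Nefh, the heavy neurofilament chain, was at 1.97 ± 0.580 CPM in dorsal against 6.88 ± 0.336 CPM in ventral (adjusted p = 0.0287, edgeR). Nes, the filament protein of progenitors, was at 64.4 ± 20.2 CPM in dorsal against 17.63 ± 7.06 CPM in ventral (adjusted p = 0.0118, edgeR).

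Among 17 RNA-binding genes, 3 were higher in dorsal, 1 was lower and 13 did not pass. Celf2, a regulator of splicing, stood at 543 ± 58.0 CPM in dorsal against 275 ± 29.9 CPM in ventral (adjusted p = 0.00477, edgeR). Elavl2 (HuB), a further neuronal ELAV gene, was at 274 ± 47.2 CPM in dorsal against 149 ± 32.8 CPM in ventral (log2 fold change 0.88, adjusted p = 0.0281, edgeR). Rbfox1 was at 41.4 ± 3.80 CPM in dorsal against 67.8 ± 4.77 CPM in ventral, and its relative Rbfox3, named after its values were seen, was the other call in dorsal at 94.3 ± 9.62 CPM against 49.1 ± 17.3 CPM in ventral. Of 8 growth cone and axonal membrane genes 2 were higher in dorsal: Cntn2, an axonal adhesion molecule, at 362 ± 141 CPM in dorsal against 29.5 ± 2.22 CPM in ventral (12.3-fold), and Marcks at 1120 ± 88.3 CPM in dorsal against 795 ± 35.7 CPM in ventral. Of 7 axonal kinesins, Kif21b (218 ± 27.8 CPM in dorsal, 83.6 ± 23.4 CPM in ventral) and Kif21a (185 ± 15.5 CPM in dorsal, 115 ± 12.2 CPM in ventral) were higher in dorsal. Of 5 regulators of neuronal genes 0 passed by edgeR, DESeq2 called 1 and an unadjusted p under 0.05 was found for 2. Insm1 was at 191 ± 21.5 CPM in dorsal against 89.0 ± 53.4 CPM in ventral, and Myt1l at 164 ± 12.1 CPM in dorsal against 124 ± 18.9 CPM in ventral.

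Markers of other cell states also differed between the regions. Over all genes tested, 7.14% were called higher in dorsal and 9.54% higher in ventral. Of 12 cell cycle genes, 11 were higher in dorsal (median log2 fold change of the list 2.03), where their summed level ran from 1189 to 1523 CPM, against 318 to 465 CPM in ventral. Of 8 markers of neurogenic and newborn neurons 5 were higher in dorsal and 0 in ventral, with sums of 1539 to 1719 CPM in dorsal against 363 to 373 CPM in ventral. Of the 3 that did not pass, Btg2, named with its values in view, was the only one with a lower mean in dorsal (log2 fold change -0.23). Neurog2, a proneural factor, was at 375 ± 5.2 CPM in dorsal against 34.7 ± 7.66 CPM in ventral, and Tbr1, a factor of early cortical neurons, at 423 ± 72.0 CPM in dorsal against 3.0 ± 1.58 CPM in ventral. Because the list includes such lineage factors, its counts and sums are not read as numbers of newborn neurons. Of 10 progenitor genes, 4 were higher in dorsal (Pax6 and Notch1 with the smallest p) and 2 were lower, Sox1 and Sox3, and the sums ran from 597 to 697 CPM in dorsal and from 451 to 578 CPM in ventral. Of 5 Cajal-Retzius genes 4 were higher in dorsal, with Reln at 220.0 ± 36.4 CPM in dorsal against 12.5 ± 1.98 CPM in ventral and Trp73 at 46.2 ± 10.3 CPM in dorsal against 0.318 ± 0.197 CPM in ventral, while Lhx5 was lower in dorsal. Of the peripheral neuron and neural crest markers, Isl1, a factor that central neurons also use, was lower in dorsal, at 47.0 ± 1.29 CPM in dorsal against 426 ± 28.6 CPM in ventral, and the crest gene Sox10 stayed below 1 CPM in every library. Lists of 5 mesenchyme, 2 endothelial and 1 microglial tested genes had 0 calls by edgeR and by DESeq2, with 1, 0 and 0 at an unadjusted p under 0.05. Embryonic globins of red blood cells, 2 of the 3 globins tested, were also higher in dorsal: Hbb-y was at 31.5 ± 18.3 CPM in dorsal against 1.23 ± 0.527 CPM in ventral and Hba-x was at 4.30 ± 2.84 CPM in dorsal against 0 in every ventral library. The part of these cell states, and of the mitochondrial share, in the differences of Dcx, Gap43 and Stmn2 was not tested.

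**Figure D3:**
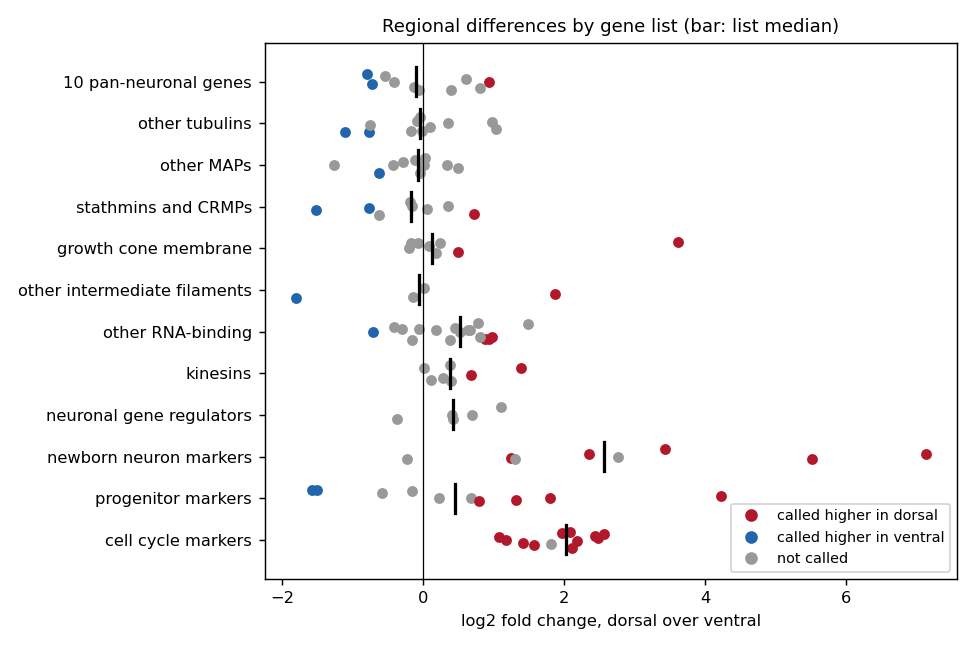
Log2 fold change, dorsal over ventral (horizontal axis), for each tested gene of the 10 pan-neuronal genes and of 11 other lists; black bars are list medians and colours give the edgeR call. The pan-neuronal genes centre on -0.10, while cell cycle markers centre on 2.03 and newborn neuron markers on 2.56. The newborn neuron list includes lineage factors such as Tbr1 and is not read as a number of newborn neurons.

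The Smart-seq2 libraries ask how these genes differ between Axin2-null and wild-type cells of the E11.5 medial cortex. Values are TPM (transcripts per 1000000), which are already per length but keep no read depth. Since no embryo is named, each genotype counts as 1 sample, no test was made, and the spread over libraries describes these libraries only. Axin2 itself had a median of 3.28 TPM over null libraries (0 to 22.4) and 13.2 TPM over wild-type libraries (4.32 to 35.9), so the genotypes overlapped. Which exons the LacZ allele removes is not given in the sources used here. Between 7863 and 11852 genes (median 10791) reached 1 TPM in null and between 8693 and 12209 (median 11271) in wild-type libraries. Mitochondrial genes had a median share of 1.84% in null (0.384% to 5.71%) and 3.40% in wild-type libraries (2.11% to 8.80%), whose part in the differences was not tested.

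Progenitor and neuronal transcripts were found in the same libraries. Sox2, Pax6, Hes5 and Fabp7, markers of neural progenitors, were all at 1 TPM or more in 24 of 25 libraries, and Tubb3 was as well in those 24. In 23 libraries the 4 markers stood together with the mitotic gene Top2a and with Tubb3, Stmn2 and Elavl4. Tubb3, Dcx, Map2, Elavl3 and Elavl4 reached 1 TPM in all 25 libraries, Gap43 and Stmn2 in 24 and Ina in 23. The neurofilament chains were sparse, with Nefl at 1 TPM or more in 12 and Nefm in 11 libraries. Nefh reached 1 TPM in 0 of 13 null and 0 of 12 wild-type libraries. Whether a library held more than 1 cell was not tested. Red blood cell genes summed to between 1817 and 37170 TPM in null and between 639 and 23180 TPM in wild-type libraries, while 10 intestinal and pancreatic genes stayed at or below 11.2 TPM in sum.

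By median over the 25 libraries Tubb3 was the most abundant at 469 TPM, followed by Stmn2 at 101, Elavl4 at 61.3, Map2 at 57.9 and Gap43 at 50.7 TPM. Ina at 14.8, Dcx at 14.1 and Elavl3 at 12.7 TPM formed a lower group, and Nefl and Nefm were at 0.860 and 0.850 TPM. Single libraries spread widely around these medians, and the ranges of all neighbours in this order overlapped. Ina had rank 3 of the 10 genes per length in both regions of the diencephalon and rank 6 here. The tables were normalized separately and differ in age, tissue and method, so these positions were set side by side only.

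None of the 10 genes differed by 1 or more in mean log2(TPM + 1) between genotypes. Of the 13680 genes whose mean reached 1 TPM, 9.52% did, 1.39% higher and 8.14% lower in null libraries. The members' median difference was -0.61, null minus wild type, against -0.22 over all genes, with 8 members lower and 2 higher in mean. Without null library 7, which had the fewest detected genes, the members' median was -0.23 against -0.18 over all genes, with 6 members lower and 4 higher. In every gene the genotypes overlapped.

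**Figure D4:**
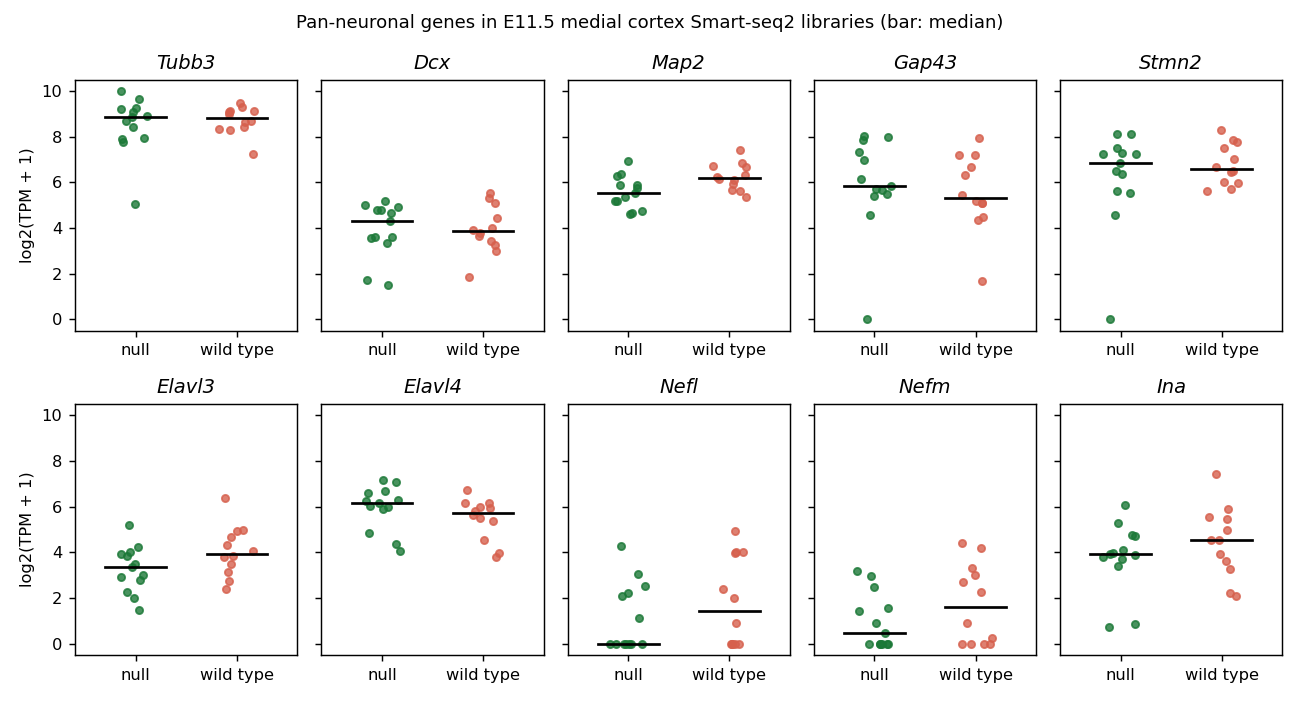
Level of each gene as log2(TPM + 1) (vertical axis) in 13 null (green) and 12 wild-type (orange) Smart-seq2 libraries; each point is a library and each bar a median. Genotypes overlap for every gene, null library 7 is the low point for Tubb3 at 31.8 TPM, and many libraries have Nefl and Nefm at 0.

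Microtubule genes covered the whole range from no difference to the lower values in null. Tubb3 ran from 31.8 to 1017 TPM (median 469) in null and from 148 to 718 TPM (median 456) in wild-type libraries, a difference of -0.20 in mean log2(TPM + 1). Dcx ran from 1.82 to 35.4 TPM (median 19.0) in null and from 2.64 to 45.5 TPM (median 13.4) in wild-type libraries, a difference of -0.02. Map2 ran from 23.2 to 121 TPM (median 44.5) in null and from 40.3 to 168 TPM (median 71.9) in wild-type libraries. For Map2, 6 of 13 null libraries lay below the lowest wild-type library and 3 lay above the wild-type median, with a difference of -0.69.

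The growth cone genes and the ELAV genes were each split between directions. Gap43 ran from 0 to 257 TPM (median 55.3) in null and from 2.22 to 247 TPM (median 38.9) in wild-type libraries, a difference of 0.37. Stmn2 ran from 0 to 278 TPM (median 115) in null and from 47.6 to 316 TPM (median 94.8) in wild-type libraries, a difference of -0.55 although the null median was the higher. Null library 7 had 31.8 TPM of Tubb3 and 0 of both growth cone genes. Without it, the difference was 0.86 for Gap43, -0.03 for Stmn2 and 0.09 for Tubb3. Elavl4 ran from 15.8 to 141 TPM (median 70.8) in null and from 13 to 105 TPM (median 51.3) in wild-type libraries, a difference of 0.49. Elavl3 ran from 1.76 to 35.5 TPM (median 9.15) in null and from 4.26 to 83.0 TPM (median 14.2) in wild-type libraries, a difference of -0.79.

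The filament genes were lower in mean in null libraries, at low levels. Ina ran from 0.66 to 66.8 TPM (median 14.2) in null and from 3.22 to 169 TPM (median 22.04) in wild-type libraries, a difference of -0.67. Nefl reached 1 TPM in 6 of 13 null libraries (46.2%, exact 95% interval 19.2% to 74.9%) and in 6 of 12 wild-type libraries (50%, 21.1% to 78.9%). Nefm reached it in 5 of 13 null libraries (38.5%, 13.9% to 68.4%) and in 6 of 12 wild-type libraries (50%, 21.1% to 78.9%). These intervals cover counting error only. The intervals of both genotypes overlapped for each chain.

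The header of the Smart-seq2 table lists null and wild-type columns 1 to 7 first and the other 11 columns after them. The labels give no batch, but Gapdh, a gene of glycolysis, had a median of 2110 TPM over the first 14 columns and 3086 TPM over the last 11. Within the first 14 columns the null minus wild-type difference was -0.50 for Map2, -0.77 for Elavl3, 0.86 for Elavl4, 0.05 for Ina, 0.25 for Nefl and -0.28 for Nefm. Within the last 11 it was -0.95 for Map2, -0.72 for Elavl3, -0.01 for Elavl4, -1.70 for Ina, -1.89 for Nefl and -1.44 for Nefm. Map2 and Elavl3 were lower in mean in null libraries in both sets of columns, whereas the 3 filament genes were lower by more than 1 in the last 11 columns and not in the first 14. Over both sets, 5 of the 10 genes (Tubb3, Map2, Stmn2, Elavl3 and Nefm) were lower in mean in null libraries. Without null library 7, one of the first 14 columns, these were 3 (Map2, Elavl3 and Nefm). The difference within that set was then 0.53 for Tubb3, 0.54 for Stmn2, 1.54 for Gap43 and 1.18 for Elavl4. The members' median there was 0.51, against -0.04 over all genes, with 3 members lower and 7 higher in null. Within the last 11 columns the members' median was -0.66, against -0.36 over all genes, with 8 lower and 2 higher.

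Among the 71 related genes of the 8 lists, only L1cam, an axonal adhesion gene, and the regulators Rest and St18 differed by at least 1. All were lower in mean in null libraries, and these 3 are named for that size. Of all genes whose mean reached 1 TPM, 9.52% differed by as much, 8.14% of them all being lower in null. The 3 genes are not read as a share above this background. L1cam had a median of 1.99 TPM in null and 19.5 TPM in wild-type libraries, a difference of -1.73. Rest, a repressor of neuronal genes in progenitors and non-neural cells, had a median of 6.27 TPM in null and 13.6 TPM in wild-type libraries (-1.17), and St18 5.27 TPM in null and 15.4 TPM in wild type (-1.54). Tubb2a, lower in dorsal diencephalon, had medians of 145 TPM in null and 135 TPM in wild-type cortex libraries, and Dpysl4 had medians of 33.6 TPM in null and 15.1 TPM in wild type. Cell cycle genes had a median sum of 1714 TPM in null and 2082 TPM in wild-type libraries, and newborn neuron markers 357 TPM in null and 366 TPM in wild type.

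Across the 25 Smart-seq2 libraries most of the 10 genes varied together. Of 45 gene pairs, 43 had a Pearson r of log2(TPM + 1) above 0, with a median of 0.41; without null library 7 these were 38 pairs and 0.32. The closest pairs were Tubb3 with Stmn2 (r = 0.85, and 0.61 without null library 7) and Gap43 with Stmn2 (0.80, and 0.63). Gap43 with Stmn2 reached 0.89 over the 13 null and 0.76 over the 12 wild-type libraries. Null library 7, with 0 TPM of both genes, is among those 13. Its part in the r values over null libraries was not tested, so the genotypes were not compared on them. Nefl with Nefm reached 0.59 over all libraries, 0.09 over null and 0.84 over wild-type libraries. Dcx had a low r with the filament genes, at -0.25 with Nefm, 0.11 with Nefl and 0.03 with Ina. With Ina it was 0.39 over null and -0.40 over wild-type libraries. Elavl3 was also low with Nefl (0.02) and Nefm (-0.08) but reached 0.32 with Ina. Elavl4 was at 0.17 with Nefl, 0.05 with Nefm and 0.51 with Ina. Nefl and Nefm reached 1 TPM in only 12 and 11 libraries. The 2 ELAV genes had an r of 0.20 over all libraries, 0.72 over null and -0.09 over wild-type libraries. All points share the library preparation and its sensitivity, whose part in these r values was not tested. The mean of the 10 standardised genes had an r of 0.61 with the number of genes at 1 TPM, 0.72 with Top2a and 0.20 with Fabp7. Top2a and Fabp7 were picked with values in view, and the other genes of the cell cycle and progenitor lists were not compared this way. Cdca8, a mitotic gene outside these lists, went the other way with an r of -0.51. These are over all 25 libraries, including null library 7, which had the fewest genes at 1 TPM.

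**Figure D5:**
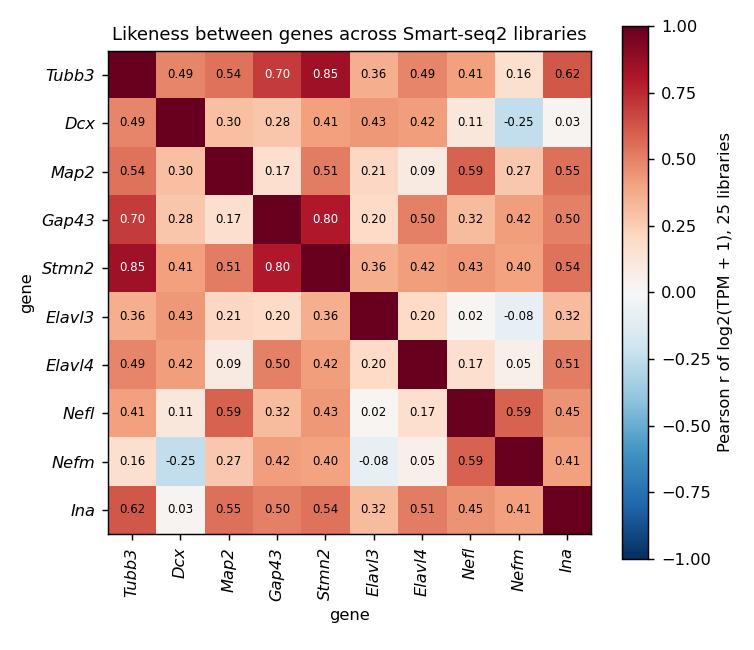
Pearson r of log2(TPM + 1) between the 10 genes (both axes) over 25 Smart-seq2 libraries, from blue at -1 to red at 1. Pairs among Tubb3, Gap43 and Stmn2 are the highest, at 0.70 to 0.85, and Dcx with Nefm is the lowest pair at -0.25. Without null library 7, Tubb3 with Gap43 falls to 0.44, Tubb3 with Stmn2 to 0.61 and Gap43 with Stmn2 to 0.63. Nefl with Nefm is then at 0.57, above Tubb3 with Gap43.

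Of the 6657 protein-coding genes whose mean reached 10 TPM, Crmp1 and Stmn3 had the profiles most like the mean of the 10 standardised genes over the 25 libraries. Crmp1, a collapsin response mediator, had an r of 0.90 (0.82 without null library 7) and Stmn3, a further stathmin, 0.86 (0.76). Ypel5, Smarca2, a chromatin remodelling subunit, and Dnajc5, a synaptic vesicle chaperone, followed at 0.82, 0.82 and 0.81 (0.67, 0.65 and 0.67 without null library 7). The lowest values belonged to Pmpcb at -0.57, Rnaset2a at -0.53, Cdca8, a chromosomal passenger subunit of mitosis, at -0.51, Wfdc2 at -0.50 and Tmem107 at -0.50. Without null library 7 these were -0.30 for Pmpcb, -0.40 for Rnaset2a, -0.42 for Cdca8, -0.58 for Wfdc2 and -0.42 for Tmem107. These correlations were across libraries of 2 genotypes and are given as a description.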

How the data were processed

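Bulk RNA-seq of 3 dorsal and 3 ventral diencephalon libraries and Smart-seq2 of 13 null and 12 wild-type medial cortex libraries were used as the authors deposited them. The submitters' processing notes name Trimmomatic, STAR 2.7.0a and featureCounts, and mm10 and GRCm38, with no roles. The name of the deposited bulk file says TPM. Because its column totals ran from 17604411 to 20838226 and 46.6% of its nonzero values were whole within 0.0001, the deposited values were taken as estimated counts and rounded. The deposited Smart-seq2 table holds TPM, and its depth is unknown. Smart-seq2 columns name a genotype by colour letter but not a numbered sample. Symbols were found for 34581 of 34865 bulk and 55141 of 55487 Smart-seq2 identifiers.

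Genes whose mean reached 1 CPM were tested with edgeR 4.0.16 (R 4.3.3; TMM, quasi-likelihood F test, Benjamini-Hochberg, threshold 0.05), and DESeq2 1.42.0 was an alternative. The fit was checked on simulated data, where it made few false calls. It missed most of the genes changed by a log2 of 1, more than any of the 10 genes differed between regions. It also missed many of those changed by a log2 of 2, and the pass mark for these was lowered after a first failure. An uncalled gene is therefore not shown to be unchanged. SEs and 95% intervals come from the F statistic. No label ties the 3 libraries per region to separate embryos, so p-values reflect only how far these libraries vary, which may be technical. Differences between genotypes are of mean log2(TPM + 1), which understates changes of low genes, over genes whose mean reached 1 TPM. The 10 genes and all lists were chosen with earlier results of these data known. Outside the 10 genes, up to 2 called genes per list and direction (smallest p) are named, or the 2 with the highest mean where none passed, and the 5 genes most and least like the mean profile; any other gene is said to have been picked with its values in view. The intervals of shares are exact (Clopper-Pearson). Part of the peripheral neuron and crest marker list is not reported here.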

Additional observations from a re-analysis of the deposited data

How the results depend on the processing

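Calls of the regional test moved with the tool and the libraries. DESeq2 called 2 of the 10 genes higher in dorsal and 4 higher in ventral, against 1 and 2 by edgeR. Over all genes it called 1542 and 2009, against 1050 and 1403. Leaving out 1 library at a time gave 0 to 2 genes higher in dorsal and 0 to 3 higher in ventral, and 500 to 1695 and 839 to 1928 over all genes. Leaving out library 3 of both regions, chosen after seeing the data, gave 3 and 4 of the 10 genes and 3843 and 4117 of all genes. In none of these fits are the counts of the 10 genes read as shares that differ from those over all genes. The log2 fold change of Tubb3 ran from -0.17 to 0.06 and changed sign without dorsal library 3 (0.06). The cause of these changes was not tested. A fit with the replicate number as a block gave the same 1 and 2 genes called, and 924 and 1083 over all genes. Deviations of same-numbered libraries correlated at 0.098, 0.147 and 0.160, and those of other-numbered libraries at -0.19 to 0.186. Dorsal libraries 1 and 3 correlated best with the ventral library of their own number, and dorsal library 2 with ventral library 1 (0.186). These values do not decide whether same-numbered libraries were pairs, and the main fit used no pairs.

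Between genotypes, 2 of the 10 genes were lower by at least 1 in null libraries with a pseudocount of 0.1 TPM, 2 with medians and 3 in the last 11 columns, against 0. Over all genes the higher and lower counts were 766 and 3038 with a pseudocount of 0.1 TPM, 14 and 31 with 10 TPM, and 427 and 1699 with medians, against 190 and 1113. They were 434 and 2931 in the last 11 columns, and 856 and 1508 in the first 14. Columns were split after seeing the data. With TPM alone, depth cannot separate a gene at 0 from one not sampled.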
